A study of Mus musculus with 115 samples.

Results

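Collagen genes were described in liver and in inguinal fat of mice that differed in gonad type, sex chromosomes and hormone capsule. The members were all array probes whose gene symbol is Col, a number, the letter a and a number. They were 56 of the 25697 probes in each tissue's table and stood for 36 of the 18120 gene symbols there. A probe was tested where enough arrays of the tissue detected it, which left 33 collagen probes of 26 genes in fat and 16 probes of 14 genes in liver. The 14 genes tested in liver were all tested in fat, 12 more were tested in fat and not in liver, and 10 were tested in neither tissue. Of the untested collagen probes, 17 of 23 in fat and 28 of 40 in liver were detected on no array.

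The animals were FCG mice on a C57BL/6J background, in which the Y chromosome (written Y-) lacks Sry, the gene that starts testis development. XX and XY- mice carried no Sry and were born with ovaries, whereas XXSry and XY-Sry mice carried Sry as a transgene and were born with testes. Every mouse, controls included, lost its gonads at 75 days of age and had a Silastic implant placed at that time: blank (B), with testosterone at 5 mM (T) or with 50 µg of estradiol in oil (E). Liver and fat were collected after 3 weeks. A difference between mice with and without Sry was thus measured after the gonads were gone. Liver had 60 arrays, 5 in each of 12 groups. Inguinal fat had 55 arrays, with 3 for XX B, 4 each for XY-Sry B, XX T and XXSry E, and 5 in each of the other groups. Each array was treated as a separate sample, and p-values measure the spread between these samples.

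Collagens are extracellular matrix proteins built from 3 chains wound into a helix. Fibrillar collagens form the tensile fibres of connective tissue, fibril-associated collagens with interrupted helices (FACIT) bind to their surface, and collagen IV forms the sheet of the basement membrane. Collagen VI makes beaded filaments around cells, collagen VII anchors epithelium to the tissue below, the transmembrane collagens sit in the cell surface, and the multiplexins XV and XVIII lie in vascular and epithelial basement membranes. In fat the fibrillar chains come mainly from fibroblast-like stromal cells and the collagen IV chains also from adipocytes and vessels. In liver, stellate cells are the best known source of fibrillar collagen. In bulk tissue, fewer cells of a type and less RNA per cell cannot be told apart.

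Across arrays, the share of probes detected ran from 31.8% to 41.0% in liver (median 35.9%) and from 40.3% to 49.0% in fat (median 45.6%). Of 6 hepatocyte markers all 6 were tested in liver, and of 7 adipocyte markers all 7 in fat. Fat samples also held epithelial signal, which is given beside the gonad results. In liver, 1 array went against its genotype label, XY-Sry T replicate 5. Its Xist value was 6.30 log2 units, inside the 6.17 to 7.43 of the XX arrays and above the highest value of 5.25 among the other XY arrays. Another liver array, XY- E replicate 5 by its label, had testosterone-like values. Its mean over the 50 probes that moved most with testosterone on these same arrays, signed by direction, was 2.62, where the testosterone arrays ran from 2.41 to 3.31 and the other estradiol arrays from -0.49 to 1.24. In fat, the labels of XX E replicate 1 name different capsules in different fields. It was kept as estradiol. Its mean over the 50 probes that moved most with estradiol on these same arrays, 8.23, lay among the 6.92 to 8.53 of the other estradiol arrays. The array was counted as estradiol when those probes were chosen, so this does not test its label. All 8 called collagen differences in liver remained called with both of the discordant liver arrays left out. With the fat array taken as testosterone, 24 of the 25 called differences followed in fat remained. The exception was Col18a1 by gonad type (0.38 log2 units, limma adjusted p = 0.0799). Those followed leave out Col27a1 with estradiol and, outside the interactions, further probes of a gene.

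The fat array XY- E replicate 3 stood apart in the collagens as a whole. It was singled out after its values were seen. It was the lowest of the 10 estradiol arrays without Sry for 20 of the 26 tested genes, and for 10 of them its distance from the next array passed Dixon's criterion at 95%. Col5a1 was 10.17 log2 units there and at least 12.12 on the other 9 arrays. Its summed fibroblast markers (12.97) and macrophage markers (11.07) also lay below the other 9 arrays, which began at 13.68 and 11.59. Its myofibroblast and stellate markers (13.59) and brown adipocyte markers (14.10) lay above those arrays, which ended at 13.15 and 13.60. Its skeletal muscle markers (17.12) lay near the top of the 9.67 to 17.24 of the others. Without it 17 collagen probes were higher with estradiol in place of 16, since Col6a1 was then called (0.38, adjusted p = 0.0062). Calls that it ended or made in the main comparisons and interactions are given with their genes. Within a capsule or gonad type only counts are given. Without the array, gonad calls numbered 9 in place of 8 with testosterone and 8 in place of 9 with estradiol. Testosterone calls with Sry numbered 5 in place of 3.

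Promoter sequences are shown for members called in fat, among them a pair of neighbouring genes that were both lower by gonad type. The sequences are RefSeq's (GRCm38.p6), on the coding strand, 5′ to 3′, and end before the first annotated transcribed base. Col1a2 (chr6:4505368-4505617, plus strand) and Col3a1 (chr1:45311288-45311537, plus strand) are fibrillar chains that were higher with estradiol in fat. Col17a1 (chr19:47692043-47692292, minus strand) differed most by gonad type. Col4a5 (chrX:141475169-141475369, plus strand) and Col4a6 (chrX:141474096-141474326, minus strand) are read away from each other from start sites 1343 bases apart. Capitals mark short motifs found on either strand. GGTCA is the core of an estrogen response element. CCAAT is bound by the general factor NF-Y. TATAA is a core promoter motif, and GGGCGG is the letter run known from Sp1 sites.
Col1a2: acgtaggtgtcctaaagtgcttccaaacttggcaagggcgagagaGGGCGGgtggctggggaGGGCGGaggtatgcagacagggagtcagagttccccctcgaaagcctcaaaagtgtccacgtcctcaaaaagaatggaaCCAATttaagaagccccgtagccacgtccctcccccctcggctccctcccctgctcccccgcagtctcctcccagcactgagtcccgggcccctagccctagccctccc
Col3a1: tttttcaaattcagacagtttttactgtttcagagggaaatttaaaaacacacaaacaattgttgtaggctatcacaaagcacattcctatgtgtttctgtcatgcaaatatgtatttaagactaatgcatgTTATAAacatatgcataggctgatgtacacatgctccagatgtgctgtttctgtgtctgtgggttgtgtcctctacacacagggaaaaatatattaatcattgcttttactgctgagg
Col17a1: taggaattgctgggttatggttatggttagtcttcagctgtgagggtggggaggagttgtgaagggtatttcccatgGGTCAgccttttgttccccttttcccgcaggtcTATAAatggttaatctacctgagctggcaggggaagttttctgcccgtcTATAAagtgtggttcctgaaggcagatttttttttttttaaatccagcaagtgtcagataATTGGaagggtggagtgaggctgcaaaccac
Col4a5: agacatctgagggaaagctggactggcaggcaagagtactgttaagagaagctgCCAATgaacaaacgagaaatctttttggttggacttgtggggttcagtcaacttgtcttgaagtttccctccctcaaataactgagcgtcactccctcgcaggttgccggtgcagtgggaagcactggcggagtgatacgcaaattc
Col4a6: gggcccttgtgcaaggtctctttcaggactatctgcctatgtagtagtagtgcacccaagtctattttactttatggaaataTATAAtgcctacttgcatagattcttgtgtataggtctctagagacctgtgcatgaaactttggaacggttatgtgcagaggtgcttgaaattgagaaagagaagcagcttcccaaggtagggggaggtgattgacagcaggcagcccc

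The Col17a1 window held GGTCA at -173 from the start site, a CCAAT motif at -31 and TATAA motifs at -140 and -91. A CCAAT motif at -109 and GGGCGG motifs at -205 and -188 lay in the Col1a2 window, and that of Col3a1 held overlapping TATAA matches at -118 and -117. RefSeq promoters, from 250 bases before to 50 after the start site, were found for 29 of the 36 genes, 32 promoters in all. The motifs were counted only in the 250 bases before the start site, in these and in all mouse promoters. Col1a1, Col2a1, Col4a3, Col5a2, Col9a3, Col12a1 and Col14a1 were not matched. GGTCA on either strand was in 11 of the 32 (34.4%) and in 35.2% of the 32851 mouse promoters. The full estrogen response element GGTCANNNTGACC was in 0 of the 32 and in 0.0639% of all. For the androgen receptor, AGAACA was in 1 of the 32 (3.13%) and in 16.1% of all, and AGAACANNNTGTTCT was in 0 and in 0.0091%. GGGCGG was in 18 of the 32 (56.3%) and in 32.7% of all. CCAAT was in 12 (37.5%) and in 33.8% of all, and TATAA in 7 (21.9%) and in 22.8% of all. These matches describe letters in these windows only.

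In fat, estradiol was accompanied by higher fibrillar, fibril-associated, transmembrane and multiplexin XVIII collagens, while the main collagen IV and VI chains were not called. A total of 16 of the 33 tested collagen probes, of 13 genes, were higher with estradiol and 0 were lower, where 10.4% of all 14636 tested probes were higher, 10.1% were lower and 20.5% were called in either direction. A call means a limma adjusted p under 0.05 over all tested probes of the tissue. The median difference was 0.43 log2 units over the collagen probes and -0.02 over all tested probes. Estradiol and testosterone were each compared with the same blank arrays, 17 in fat and 20 in liver.

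**Figure D1:**
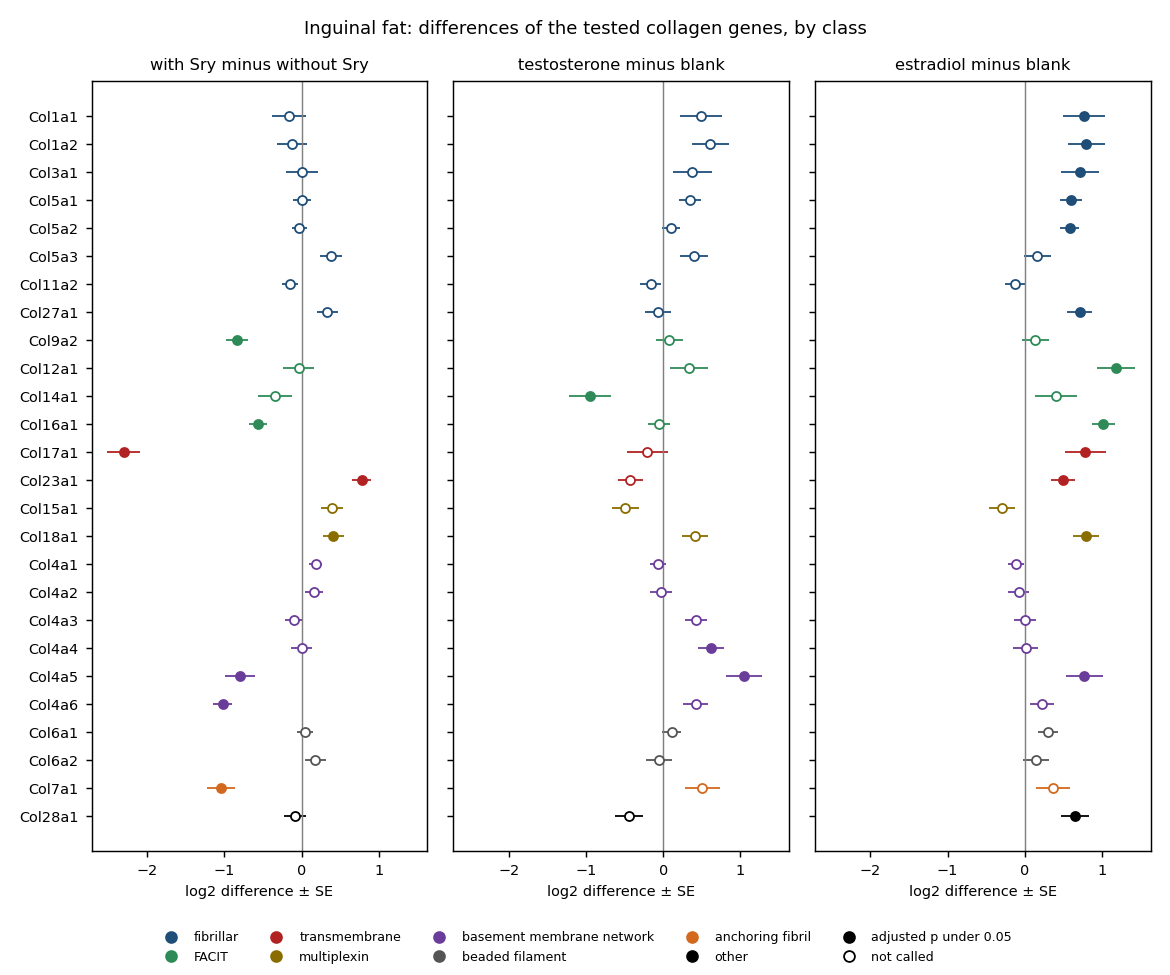
Difference in inguinal fat for the 26 tested collagen genes, grouped by class, with the model's standard error; the panels share 1 log2 axis. Filled points passed limma's test at an adjusted p under 0.05. Col17a1 lies at -2.31 by gonad type, and the filled points of the estradiol panel all lie above 0.

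Of the fibrillar genes, 6 of 8 tested were higher with estradiol, with a class median of 0.65 log2 units. Among the 6 was Col5a2, which no blank array detected, so its call adds no support to the count. Col1a2, the second chain of collagen I, ran from 8.49 to 11.86 log2 units (median 9.94) on 17 blank arrays and from 8.05 to 11.92 (median 10.66) on 19 estradiol arrays. The ranges overlapped over nearly their whole length, and the difference of 0.80 ± 0.24 (SE) had a limma adjusted p of 0.0144. Col1a1, the main chain of collagen I, had 10.49 to 13.07 (median 11.85) on blank arrays and 9.99 to 13.69 (median 13.01) on estradiol arrays. Its difference was 0.77 ± 0.27 (adjusted p = 0.0386). A slide block ended the Col1a1 call (0.59, adjusted p = 0.0794), its sign differed between the 2 slides that hold both capsules (-0.09 and 0.79), and 16 of 55 single arrays ended the call when left out.

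Col3a1, the collagen III chain that joins type I in soft tissue, ran from 9.40 to 12.55 (median 11.09) on blank arrays and from 8.81 to 12.67 (median 11.76) on estradiol arrays. It was higher by 0.72 ± 0.25 (adjusted p = 0.0342), and 11 of 55 single arrays ended that call when left out. A second, much dimmer Col3a1 probe, detected on 15 arrays, differed by 0.43 (adjusted p = 0.318). Median centring in place of quantile normalisation ended the Col1a1 and Col3a1 calls, at 0.70 (adjusted p = 0.163) and 0.65 (adjusted p = 0.0518). Collagen V starts and limits the width of collagen I fibrils. Its Col5a1 chain was higher by 0.60 ± 0.14 (adjusted p = 0.00162), from a range of 10.97 to 12.41 (median 11.81) to one of 10.17 to 12.84 (median 12.33). Col5a2 was detected on none of the blank arrays and on 8 of 19 estradiol arrays. It passed the detection filter without any blank array, so its fitted 0.58 is given neither as a fold nor with a p-value. Col27a1 was also higher, by 0.71 ± 0.17 (adjusted p = 0.00127). The remaining fibrillar genes were not called: Col5a3 differed by 0.16 (95% interval -0.19 to 0.52) and Col11a2, detected on 3 of 55 arrays, by -0.13.

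**Figure D2:**
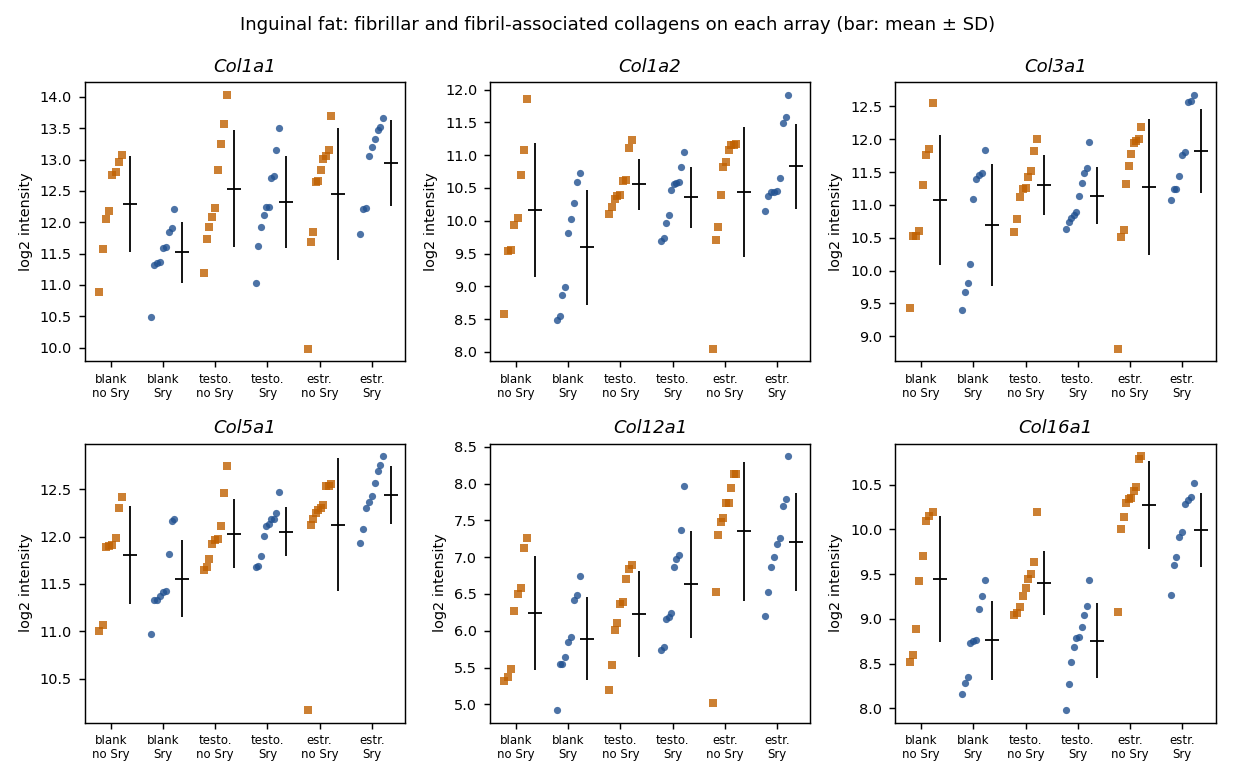
Log2 intensity on each fat array of Col1a1, Col1a2, Col3a1, Col5a1, Col12a1 and Col16a1, by capsule (blank, testosterone, estradiol) and by absence (squares) or presence (circles) of Sry; bars give mean ± SD of the 8 to 10 arrays beside them. With Sry, Col1a1 runs from 10.49 to 12.21 on blank and from 11.81 to 13.67 on estradiol arrays.

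The largest estradiol differences among the members in fat were in FACIT collagens. Col12a1, a collagen of the surface of collagen I fibrils in loaded tissue, ran from 4.92 to 7.26 (median 5.91) on blank arrays, where 9 of 17 arrays detected it. On estradiol arrays it ran from 5.02 to 8.37 (median 7.48) and 18 of 19 detected it. It was higher by 1.18 ± 0.25, or 2.27-fold (adjusted p = 0.000276). Col16a1, another FACIT member, ran from 8.16 to 10.19 (median 8.88) on blank and from 9.07 to 10.82 (median 10.30) on estradiol arrays. Its difference of 1.01 ± 0.15 was 2.02-fold (adjusted p = 8.32e-07), and it was higher on both slides that hold both capsules (0.62 and 0.71). Neither of the other 2 tested FACIT genes was called with estradiol: Col14a1 differed by 0.41 (interval -0.14 to 0.95) and Col9a2 by 0.14 (interval -0.21 to 0.49).

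Both tested transmembrane collagens and 1 of the 2 multiplexins were higher with estradiol. Col18a1, whose C-terminal fragment is endostatin, ran from 10.13 to 11.47 (median 10.89) on blank and from 9.72 to 12.17 (median 11.60) on estradiol arrays. It was higher by 0.79 ± 0.16 (adjusted p = 0.000285), and its second probe by 0.68 ± 0.18 (adjusted p = 0.00467). Col15a1, the other multiplexin, differed by -0.30 (interval -0.64 to 0.05, adjusted p = 0.237). Col17a1 (0.78, adjusted p = 0.0308) and Col23a1 (0.49, adjusted p = 0.0207) were higher over all genotypes. Leaving out any of 6 single arrays ended the Col17a1 call (highest adjusted p 0.0755), and leaving out XX B replicate 3 ended that of Col23a1 (adjusted p = 0.0741). The estradiol response of both genes also differed between gonad types, on 1 of 3 probes for Col17a1. Col28a1, a collagen outside these classes, was higher by 0.65 ± 0.18 (adjusted p = 0.00642).

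Basement membrane and beaded filament collagens differed little with estradiol. Col4a1, with Col4a2 the common collagen IV pair, ran from 12.84 to 13.98 (median 13.49) on blank and from 12.72 to 13.79 (median 13.41) on estradiol arrays, a difference of -0.11 (interval -0.32 to 0.10). Col4a2 differed by -0.08 (interval -0.36 to 0.20). Col4a5, an X-linked collagen IV chain known from Alport syndrome, was the exception: 8 of 17 blank arrays and 16 of 19 estradiol arrays detected it, and it was higher by 0.77 ± 0.24 (adjusted p = 0.0147). Without the XX B replicate 1 array the Col4a5 call was lost, at an adjusted p of 0.0524. The collagen VI chains Col6a1 (0.30, interval 0.05 to 0.55, adjusted p = 0.083) and Col6a2 (0.15, interval -0.19 to 0.48) were not called.

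Genes that make, trim and crosslink collagen, and proteins that coat its fibrils, also moved with estradiol in fat, where 20.5% of all tested probes were called. Of 19 tested synthesis genes 7 were higher and 1 lower (median 0.30 log2 units), led by Plod2 (3.03 ± 0.15), a lysyl hydroxylase whose product shapes crosslinks, and P4ha3 (1.84 ± 0.13), a prolyl hydroxylase subunit. The lower gene was Colgalt2 (-0.61), a collagen galactosyltransferase. Of 8 maturation and crosslinking genes 6 were higher (median 0.80), among them the propeptide proteases Adamts2 (1.40) and Bmp1 (1.17) and the lysyl oxidases Lox (0.63), Loxl1 (0.74) and Loxl2 (0.86). Of 13 fibril-associated matrix genes 8 were higher (median 0.50), including the small proteoglycans Ogn (1.36), Lum (1.03) and Dcn (0.25) and the microfibril gene Fbn1 (0.84). Each of the genes named from these 3 lists had an adjusted p of at most 0.0391.

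The partners of the basement membrane were mixed: of 9 tested genes Lama2 (0.76) and Agrn (0.50) were higher, Nid2 (-0.69) was lower, and the median was -0.05. Of 6 collagen receptor genes 3 were lower, the integrin chains Itga1 (-0.62) and Itga11 (-0.54) and the receptor kinase Ddr1 (-0.50). Of 13 TGF-beta genes, ligands and partners of a pathway known to raise collagen transcription, Tgfb2 (0.88), Tgfb3 (0.70), Tgfbr2 (0.83) and Ltbp1 (1.07) were higher and Smad2 (-0.26) was lower.

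Cell type markers moved with estradiol in the same fat samples. Of 8 fibroblast markers 3 were higher (Pdgfra 0.91, Mfap5 0.85 and Fbln2 1.30), with a median of 0.41, and their summed level ran from 13.03 to 14.98 on blank arrays (median 14.08) and from 12.97 to 14.88 on estradiol arrays (median 14.34). All 4 macrophage markers were higher (median 1.30), as were 2 of 9 epithelial markers, Krt8 and Krt19. Lower were 3 of 7 adipocyte markers (Plin1, Lep and Lipe), 3 of 6 endothelial markers (Pecam1, Cdh5 and Emcn) and the 3 tested brown adipocyte markers. None of 9 skeletal muscle markers was called, although their median difference was -1.15, and none of 9 lymph node markers or 4 hepatocyte markers. With a fibroblast score as a covariate, 8 collagen probes were called, 6 of them higher. Under that covariate Col1a1 differed by 0.31 (adjusted p = 0.459), Col1a2 by 0.33 (adjusted p = 0.315) and Col3a1 by 0.23 (adjusted p = 0.528), and Col5a1 by 0.25 (adjusted p = 0.0632). With an epithelial score as a covariate 10 collagen probes were called.

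Gonad type in fat was accompanied by differences in 8 collagen genes, among them chains known from epithelial basement membranes. Of these, Col17a1, Col4a5, Col16a1, Col23a1 and Col18a1 were also called for estradiol, and Col7a1, Col4a6 and Col9a2 were not. Of the 33 tested probes 9 were lower and 3 higher with Sry, beside 4.71% lower, 2.63% higher and 7.34% in either direction among all tested probes. The 9 lower probes belonged to 6 genes: Col17a1, Col7a1, Col4a6, Col9a2, Col4a5 and Col16a1. No array with Sry detected the Col9a2 probe or either tested Col4a6 probe. These probes passed the detection filter only through arrays without Sry, so their calls add no support to the count. The 3 higher probes belonged to Col23a1 and Col18a1. The median over the collagen probes was -0.03, beside 0.03 over all probes. Of 8 fibrillar genes 0 were called in limma, with a class median of -0.01, and 2, Col27a1 (0.33) and Col5a3 (0.38), had an unadjusted p under 0.05.

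Col17a1 encodes the transmembrane collagen of hemidesmosomes, which tie epithelial cells to their basement membrane. It ran from 4.80 to 8.43 (median 6.26) on 28 arrays with Sry, 14 of which detected it. On 27 arrays without Sry it ran from 6.89 to 10.51 (median 8.59), and all 27 detected it. The ranges overlapped only between 6.89 and 8.43. The difference was -2.31 ± 0.22, 4.94-fold lower with Sry (adjusted p = 6.79e-12), and the other 2 probes of the gene gave -2.26 (adjusted p = 7.25e-14) and -1.42 (adjusted p = 3.44e-11). Within the 8 slides, each of which held both gonad types, the brightest probe was lower with Sry on 7 and differed by 0.03 on the other.

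Col7a1, the anchoring fibril of the skin, ran from 5.72 to 9.12 (median 6.64) with Sry and from 6.53 to 9.11 (median 7.79) without. It was lower with Sry by -1.05 ± 0.18 on the log2 scale, 2.07-fold (adjusted p = 2.19e-05). The adjacent X-linked chains were both lower: Col4a5 ran from 4.60 to 7.75 (median 6.53) with Sry and from 4.95 to 8.55 (median 7.29) without, a difference of -0.80 ± 0.19 (adjusted p = 0.00325). Col4a6 was not detected on any of the 28 arrays with Sry and was detected on 17 of 27 without. It was at least 1.08-fold lower with Sry, a bound set by the lowest detectable signal, with measured means of 5.13 and 6.15. A second Col4a6 probe, detected on 5 of 55 arrays and on none with Sry, had a bound of 0.617-fold, which sets no minimum difference. Col4a5 was lower with Sry on all 8 slides, by -0.35 to -1.34. The common collagen IV chains did not share this: Col4a1 differed by 0.18 (interval 0.01 to 0.35, adjusted p = 0.234) and Col4a2 by 0.16 (interval -0.07 to 0.39). Among the other main chains, Col1a1 differed by -0.17 (interval -0.61 to 0.28), Col6a1 by 0.04 (interval -0.16 to 0.24) and Col6a2 by 0.18 (interval -0.09 to 0.45). Col15a1 differed by 0.39 (interval 0.11 to 0.67, adjusted p = 0.0783) and was higher with Sry on 7 of 8 slides.

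Col9a2, a FACIT chain best known from cartilage, was detected on 0 of 28 arrays with Sry and 20 of 27 without. It was at least 1.10-fold lower with Sry. None of 4 cartilage and bone markers passed the detection filter in fat. Col16a1 ran from 7.98 to 10.52 (median 9.07) with Sry and from 8.52 to 10.82 (median 9.70) without, lower by -0.56 ± 0.12 (adjusted p = 0.000714). In the other direction, Col23a1, a transmembrane collagen, ran from 5.72 to 8.86 (median 7.35) with Sry and from 5.97 to 7.65 (median 6.66) without, higher by 0.78 ± 0.13 (adjusted p = 1.16e-05). Col18a1 was higher by 0.41 ± 0.13 (adjusted p = 0.0459) on its brighter probe, a call that 33 of 55 single arrays ended when left out (XY- E replicate 3 among them, at 0.35 and an adjusted p of 0.061), and by 0.66 ± 0.15 (adjusted p = 0.00117) on its dimmer probe.

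**Figure D3:**
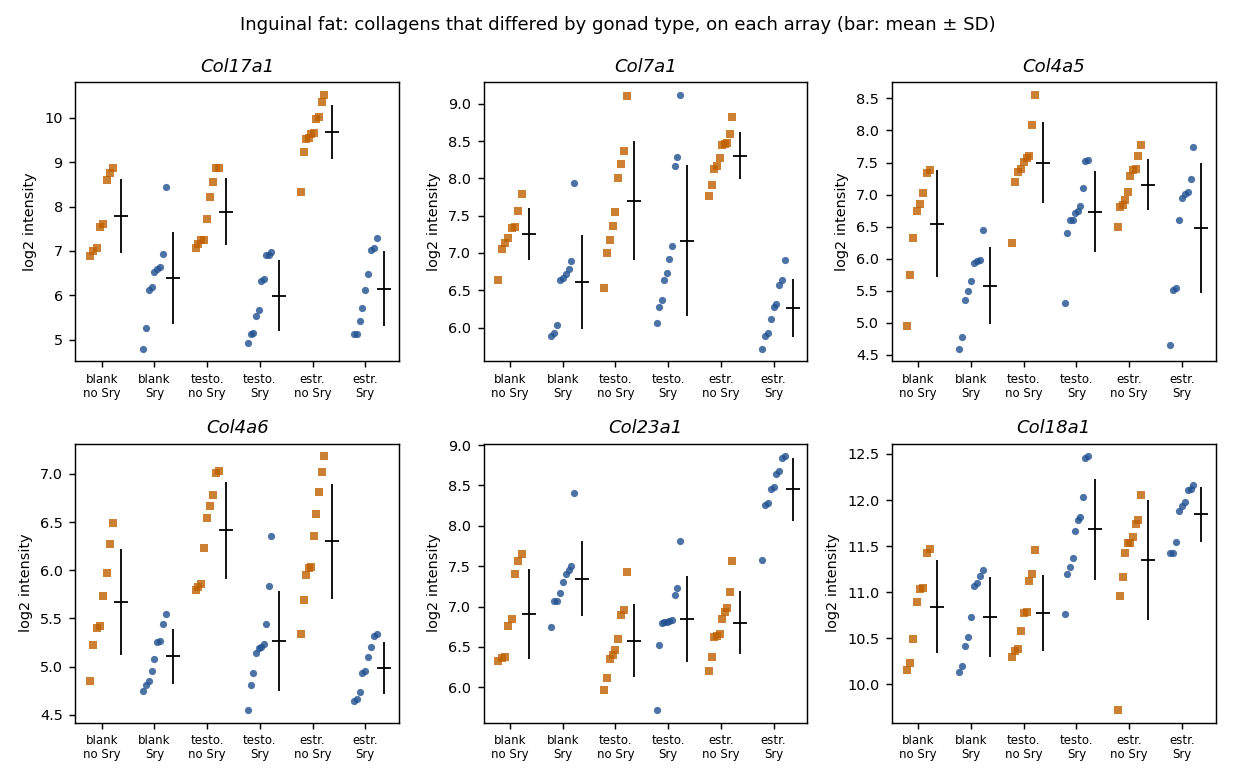
Log2 intensity on each fat array of Col17a1, Col7a1, Col4a5, Col4a6, Col23a1 and Col18a1, by capsule and by absence (squares) or presence (circles) of Sry; bars give mean ± SD of the arrays beside them. On estradiol arrays Col17a1 runs from 8.33 to 10.51 without Sry and from 5.12 to 7.29 with Sry.

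Epithelial markers moved with gonad type in the same fat samples. All 9 tested markers were lower with Sry, by -1.93 (Krt5) to -3.91 (Cldn4) and with a median of -3.30 log2 units. Their summed level ran from 8.41 to 12.08 with Sry and from 11.51 to 14.57 without, so that the gonad types hardly overlapped. An epithelial score, the mean log2 value of these markers, was used as a covariate. Since the markers nearly separate the gonad types, this fit cannot tell the score from gonad type. With it 0 of the 33 collagen probes were called for gonad type in limma, with 5 at an unadjusted p under 0.05. Of all 14636 probes 1 was called, where 1075 had been without it. Under the covariate Col17a1 differed by -0.06 (adjusted p = 0.962), Col7a1 by -0.56 (adjusted p = 0.613), Col23a1 by 0.11 (adjusted p = 0.901) and Col18a1 by 1.06 (adjusted p = 0.252). The signs of Col4a5 (0.41) and Col16a1 (0.19) turned. Among the matrix lists, Lama1 (-0.94), Ddr1 (-0.59), Tgfb3 (-0.95) and Ccn2 (-1.27) were lower with Sry and P4ha3 was higher, while 0 of 8 maturation genes and 0 of 13 fibril-associated genes were called. Of the other marker lists, Plin1, Lep and Lipe of 7 adipocyte markers and Gsn of 8 fibroblast markers were higher, and Acta2 and Tagln of 5 myofibroblast markers were lower. Myh2 of 9 skeletal muscle markers (median -0.38) and Krt7, Krt19 and Sox9 of 4 cholangiocyte markers were lower too.

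The gonad difference was also measured under each capsule. With blank capsules 3 collagen probes were called (1.8% of all probes), with testosterone 8 (3.42%) and with estradiol 9 (4.4%). The testosterone and estradiol counts include Col9a2 and the tested Col4a6 probes, which no array with Sry detected. The testosterone count also includes the Col17a1 probe ILMN_1216228, which no testosterone array with Sry detected. These calls add no support to the counts. Leaving out single arrays gave 1 to 4, 7 to 9 and 6 to 10, and XY- B replicate 5, XX B replicate 1 and XX B replicate 3 moved the blank count by over 1.5 times. The differences between these counts were not tested. Col17a1 was called under each: the difference was -1.52 (adjusted p = 0.022) with blank, -1.90 (adjusted p = 0.00033) with testosterone and -3.50 (adjusted p = 3.5e-10) with estradiol. Under estradiol its 10 arrays without Sry (8.33 to 10.51, median 9.65) lay wholly above the 9 arrays with Sry (5.12 to 7.29, median 6.11). Under blank capsules the 8 arrays without Sry (6.89 to 8.86, median 7.57) overlapped the 9 with Sry (4.80 to 8.43, median 6.51). Col7a1 behaved likewise under estradiol, with 7.76 to 8.82 (median 8.36) without Sry and 5.72 to 6.91 (median 6.28) with Sry, a difference of -2.05 (adjusted p = 1.7e-06). Unlike Col17a1, it was not called with blank (-0.57) or testosterone (-0.52), and its interaction of estradiol and gonad type (-1.48) was not called.

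The estradiol response of 2 collagen probes differed between gonad types in the interaction test, beside 0.813% of all probes. A Col17a1 probe (ILMN_1216228) was higher with estradiol by 1.52 without Sry and differed by -0.12 with Sry, an interaction of -1.64 ± 0.35 (adjusted p = 0.0045). It is the dimmest of the gene's 3 probes, detected on 23 of 55 arrays, where the others were detected on 41 and 35. No testosterone array with Sry detected it, and differences near background are understated. The other Col17a1 probes gave interactions of -1.98 (adjusted p = 0.062) and -1.41 (adjusted p = 0.21). Col23a1 went the other way. Without Sry it ran from 6.32 to 7.65 (median 6.80) on blank and from 6.20 to 7.56 (median 6.75) on estradiol arrays, and with Sry from 6.75 to 8.41 (median 7.30) on blank and from 7.58 to 8.86 (median 8.48) on estradiol arrays. The interaction was 1.29 ± 0.32 (adjusted p = 0.027); it was lost with median centring (1.21, adjusted p = 0.0808) and when any of 7 single arrays was left out. Without XY- E replicate 3, which is among them, it was 1.22 (adjusted p = 0.0526), and a second Col17a1 probe was then called (-2.13, adjusted p = 0.0317).

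Fibrillar chains were called for estradiol with Sry and not without it, but the interaction was not called for any of them. With Sry 11 collagen probes were called, all higher (10.1% of all probes were called), and without Sry 7, also all higher (10.2%). The 11 include Col5a2, which no blank array detected, so its call adds no support to the count. Single arrays left out gave 10 to 13 and 4 to 9 calls, and the lowest of these was without XX B replicate 2. Col1a1 ran from 10.49 to 12.21 (median 11.60) on 9 blank arrays and from 11.81 to 13.67 (median 13.20) on 9 estradiol arrays with Sry, higher by 1.42 ± 0.38 (adjusted p = 0.0099). Without Sry it ran from 10.89 to 13.07 (median 12.47) on 8 blank arrays and from 9.99 to 13.69 (median 12.74) on 10 estradiol arrays, a difference of 0.11 ± 0.39. The lowest value was that of XY- E replicate 3, and without this array the difference was 0.38 ± 0.36 (adjusted p = 0.588). The interaction of 1.31 ± 0.55 for Col1a1 had an adjusted p of 0.61, and was 1.04 ± 0.50 (adjusted p = 0.917) without that array. Col3a1 differed by 1.20 ± 0.35 (adjusted p = 0.018) with Sry and by 0.23 ± 0.36 without, with an interaction of 0.97 (adjusted p = 0.89). Leaving out XY- E replicate 3 gave 0.47 ± 0.33 without Sry and an interaction of 0.73. Col12a1 and Col16a1 were called in both gonad types, at 1.29 and 1.29 with Sry and 1.08 and 0.74 without.

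Testosterone in fat was accompanied by few collagen calls. Of the 33 probes 2 were higher and 1 lower, 3 in all, beside 2.16% higher, 2.59% lower and 4.75% in all among the tested probes. Col4a5 ran from 4.60 to 7.39 (median 5.96) on 17 blank arrays and from 5.31 to 8.55 (median 7.19) on 19 testosterone arrays, higher by 1.04 ± 0.24 (adjusted p = 0.00482). Col4a4, a rarer collagen IV chain, was detected on 2 of 17 blank and 8 of 19 testosterone arrays and was higher by 0.62 ± 0.17 (adjusted p = 0.0194). That call was lost with median centring (0.57, adjusted p = 0.0531) and without the XX B replicate 1 array (adjusted p = 0.0518). Col14a1, a FACIT collagen of the fibril surface, ran from 6.57 to 9.84 (median 7.88) on blank and from 5.79 to 8.71 (median 6.80) on testosterone arrays, lower by -0.95 ± 0.27 (adjusted p = 0.0287). A slide block (-0.92, adjusted p = 0.161) and median centring (-0.97, adjusted p = 0.0892) each ended that call, as did leaving out XX B replicate 2, XX B replicate 3 or XX T replicate 4.

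The fibrillar genes were not called for testosterone in fat, although their median difference was 0.36 and 3 of 8, Col1a2, Col5a1 and Col5a3, had an unadjusted p under 0.05 in limma. Col1a1 differed by 0.48 (interval -0.06 to 1.03) and Col3a1 by 0.38 (interval -0.13 to 0.88). Col15a1 differed by -0.49 (interval -0.84 to -0.14, adjusted p = 0.0915) and was called without XY- E replicate 3 (adjusted p = 0.028). Col18a1 differed by 0.41 (interval 0.08 to 0.74, adjusted p = 0.152), and Col4a1 by -0.07 (interval -0.28 to 0.14). Of 19 synthesis genes 2 were lower, Plod2 and Colgalt2, and of 8 maturation genes Bmp1 and Lox were higher. With Sry 3 collagen probes were higher (3.55% of all probes were called), Col4a5 (1.18), Col18a1 (0.96) and Col5a3 (0.82). That count ran from 1 to 5 with single arrays left out, and moved by over 1.5 times without XXSry B replicate 2, XY-Sry B replicate 4, XXSry T replicate 4, XXSry T replicate 5 or XY- E replicate 3. Without Sry 0 were called in limma (0.417%), with 8 at an unadjusted p under 0.05. In the test of the interaction between testosterone and gonad type 0 of 33 were called (0.0137%), with 5 at an unadjusted p under 0.05.

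Sex chromosome complement gave no called collagen in either tissue, including the X-linked Col4a5 (0.03 in fat) and Col4a6 (-0.05 in fat). In fat 0 of 33 probes were called in limma (0.137% of all probes were), 11 had an unadjusted p under 0.05 and 28 were higher in XX than in XY arrays, with a median of 0.18. In liver 0 of 16 were called (0.186% of all), 1 had an unadjusted p under 0.05 and 12 were higher in XX, with a median of 0.05. With array weights 5 fat collagen probes were called, as were 1148 of all tested probes.

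In liver, testosterone was accompanied by lower Col15a1, Col3a1, Col14a1, Col5a1 and Col6a1 and by higher Col27a1. By class, 2 of 6 fibrillar genes were lower and 1 higher (median -0.10), and 1 of 2 FACIT, 1 of 2 multiplexin and 1 of 2 beaded filament genes were lower. Of 16 tested probes 5 were lower and 1 was higher, where 10.9% of the 11317 tested probes were lower, 8.17% higher and 19.1% called in either direction. The higher probe, of Col27a1, would not have passed the detection filter without the testosterone arrays, so its call adds no support to the count. The median was -0.13 over the collagen probes and 0.00 over all tested probes. The split of calls depended on scaling: 42.8% of all called probes were higher under quantile normalisation and 16.5% under median centring, and 6 collagen probes with 1 higher were called under each. On its brightest probe, each of the 6 called genes differed in the same direction on all 3 slides that hold both capsules. So did uncalled genes, among them Col1a2, Col4a2, Col5a3, Col6a2, Col16a1 and Col18a1, so this does not set the called genes apart.

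Col15a1, which links basement membranes to the tissue around vessels and muscle, ran from 5.11 to 7.11 (median 6.08) on 20 blank arrays and from 4.66 to 6.79 (median 5.07) on 20 testosterone arrays. It was detected on 17 and 6 of those arrays, and was lower by -0.84 ± 0.14, 1.79-fold (adjusted p = 6.64e-06). Col3a1 ran from 4.85 to 6.76 (median 5.88) on blank arrays and from 4.56 to 5.84 (median 5.44) on testosterone arrays, where 18 and 5 arrays detected it. It was lower by -0.58 ± 0.11, 1.49-fold (adjusted p = 0.00013). Col14a1 ran from 6.00 to 6.87 (median 6.46) on blank and from 4.66 to 6.67 (median 6.10) on testosterone arrays, lower by -0.45 ± 0.11 (adjusted p = 0.00222). The ranges overlapped for all 3.

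Col5a1 was lower by -0.33 ± 0.11 (adjusted p = 0.0248), a call lost with slide as a block (-0.27, adjusted p = 0.0874). The brightest Col6a1 probe was lower by -0.32 ± 0.12 (adjusted p = 0.0436), a call that 22 of 60 single arrays ended when left out. It was also lost with slide as a block (-0.21, adjusted p = 0.142). A second Col6a1 probe, detected on 59 of 60 arrays, was not called. Within the 3 slides that hold both capsules the second probe differed by 0.04, -0.21 and -0.16. Col27a1, a fibrillar collagen best known from cartilage, moved the other way. It was detected on 1 of 20 blank and 13 of 20 testosterone arrays, ran from 4.44 to 5.58 (median 4.89) and from 4.52 to 6.81 (median 5.72), and was higher by 0.74 ± 0.14. Without the testosterone arrays it would not have passed the detection filter, so its difference is given without a p-value. Col1a1 and Col1a2, the collagen I chains, were near the floor in liver, detected on 5 and 9 of 60 arrays. Col1a1 was detected on none of the testosterone arrays, so no difference is given for it. Of the other main chains, Col4a1 differed by -0.07 (interval -0.26 to 0.12), Col4a2 by 0.03 (interval -0.22 to 0.27) and Col18a1 by 0.04 (interval -0.16 to 0.23).

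**Figure D4:**
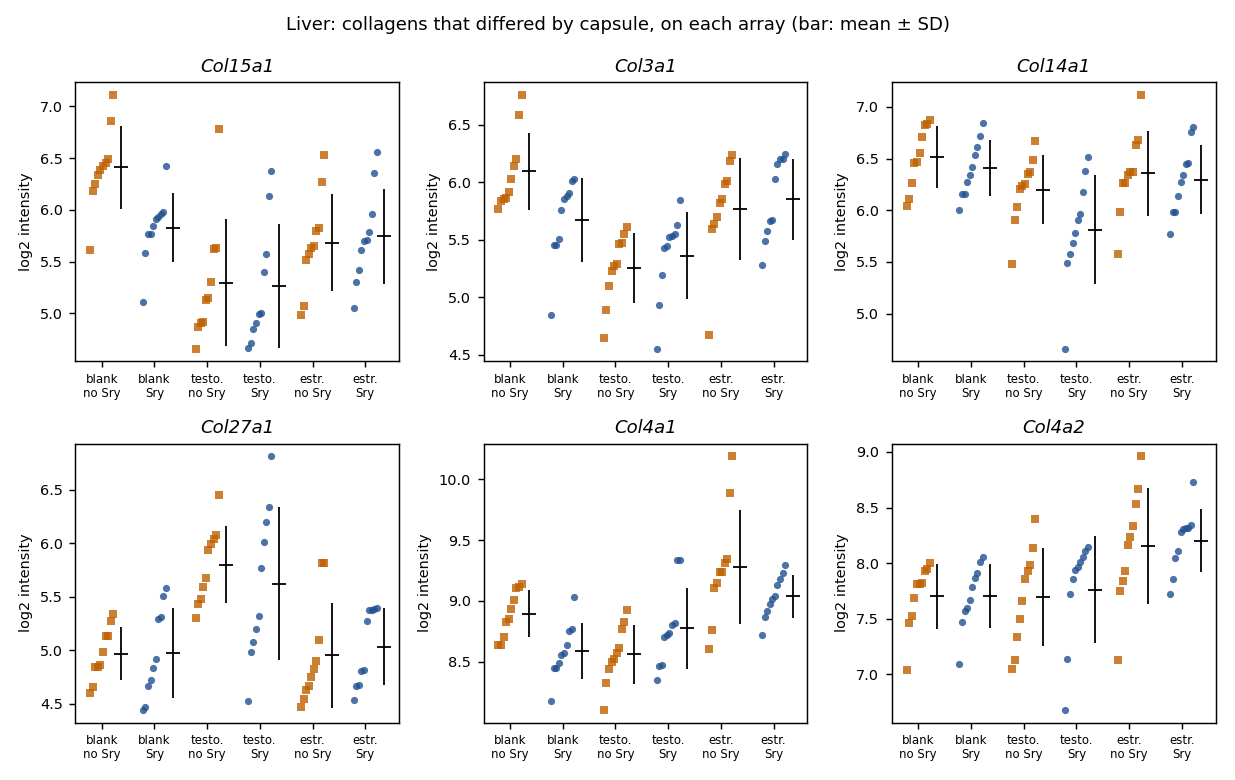
Log2 intensity on each liver array of Col15a1, Col3a1, Col14a1, Col27a1, Col4a1 and Col4a2, by capsule and by absence (squares) or presence (circles) of Sry; bars give mean ± SD of the 10 arrays beside them. Col27a1 has medians of 4.89 on blank and 5.72 on testosterone arrays, and Col4a1 of 8.73 on blank and 9.14 on estradiol arrays.

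Other matrix genes in liver moved both ways with testosterone, where 19.1% of all tested probes were called in either direction. Of 11 synthesis genes P4ha2 (0.36), Sec23a (0.37) and Sec24d (0.43) were higher, the last 2 being coat proteins of the vesicles that carry procollagen, and Crtap (-0.46) was lower. Of 6 maturation genes Bmp1 (0.37) was higher and Adamts2 (-0.30) lower. Sparc (-0.31) and Thbs2 (-0.49) of 10 fibril-associated genes and Lamb2 (-0.31) and Hspg2 (-0.33) of 7 basement membrane genes were lower, as were Tgfb1 and Ltbp4 of 11 TGF-beta genes. None of 4 tested receptor genes was called. Endothelial markers fell in part: Cdh5 (-0.69) and Emcn (-0.33) of 6 were lower, with summed levels of 9.35 to 9.87 (median 9.56) on blank and 8.86 to 9.54 (median 9.35) on testosterone arrays. Of 5 stellate and myofibroblast markers Reln (-0.32) was lower, with summed levels of 10.95 to 11.52 (median 11.28) on blank and 10.53 to 11.23 (median 11.06) on testosterone arrays, and of 4 macrophage markers Csf1r and C1qa were lower. Neither of 2 tested fibroblast markers nor any of 6 hepatocyte markers was called. The part of these cells in the collagen differences was not tested.

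Estradiol in liver was accompanied by higher levels of the common collagen IV pair. Of 16 probes 2 were higher, beside 3.55% higher, 3.27% lower and 6.82% in either direction among all tested probes. Col4a1 ran from 8.18 to 9.13 (median 8.73) on 20 blank arrays and from 8.61 to 10.19 (median 9.14) on 20 estradiol arrays, higher by 0.42 ± 0.09 (adjusted p = 0.00269). Col4a2 ran from 7.04 to 8.05 (median 7.80) and from 7.13 to 8.96 (median 8.26), higher by 0.48 ± 0.12 (adjusted p = 0.00805). The ranges of each gene overlapped. These genes are read in opposite directions from start sites that overlap by 22 bases (chr8:11312805-11312826, GRCm38.p6). Both were higher on the 2 slides that hold both capsules, by 0.47 and 0.51 for Col4a1 and by 0.28 and 0.82 for Col4a2. The uncalled Col1a1 (0.41 and 0.43), Col1a2, Col5a1 (0.18 and 0.33), Col6a1 and Col6a2 were also higher on both slides, so this does not set the pair apart.

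Scaling bore on this result. Under median centring, all tested probes had a median estradiol difference of -0.18 in place of -0.02, and 8.55% of called probes were higher in place of 52.1%. Col4a1 then differed by 0.21 (adjusted p = 0.305) and Col4a2 by 0.27 (adjusted p = 0.26), both above that median, and the 1 collagen then called was a lower Col15a1 (-0.51). With slide as a block Col4a2 differed by 0.31 (adjusted p = 0.136). Col15a1 differed by -0.40 (interval -0.68 to -0.13, adjusted p = 0.0636) and Col1a1 by 0.30 (interval 0.09 to 0.50, adjusted p = 0.0757), neither called. Nid1 (0.49), which joins collagen IV to laminin, was the 1 of 7 basement membrane genes that was higher. Ogn (0.40) and Prelp (0.38) of 10 fibril-associated genes and Bmp1 (0.46) and Pcolce2 (0.36) of 6 maturation genes were higher, and Mia3 of 11 synthesis genes was lower. Of 4 macrophage markers 3 were higher, with summed levels of 8.11 to 10.13 (median 8.87) on blank and 8.61 to 10.30 (median 9.23) on estradiol arrays, while 0 of 6 endothelial markers were called. The part of these cells in the collagen IV result was not tested.

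**Figure D5:**
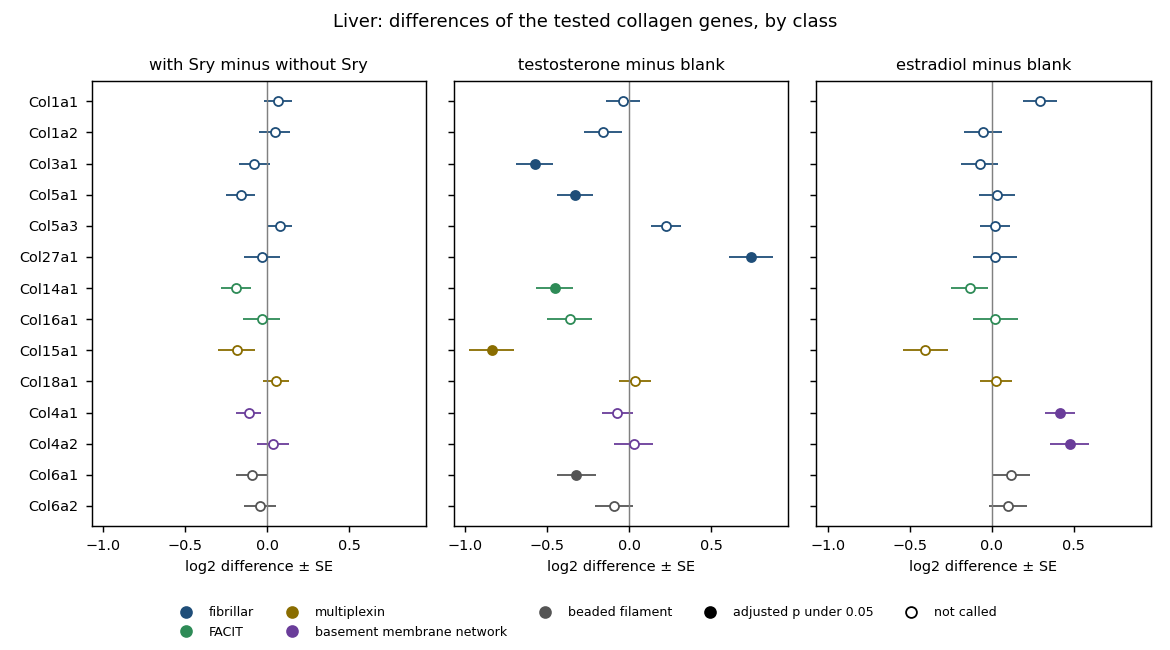
Difference in liver for the 14 tested collagen genes, grouped by class, with the model's standard error; the panels share 1 log2 axis. Filled points passed limma's test at an adjusted p under 0.05: none by gonad type, 6 with testosterone and 2 with estradiol.

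Gonad type gave 0 called collagens among 16 probes in liver in limma, where 3.4% of all probes were called, with 1 at an unadjusted p under 0.05. The differences ran from -0.19 to 0.08 with a median of -0.04. Within capsules 0 were called as well, beside 1.75% of all probes with blank, 0.212% with testosterone and 2.44% with estradiol, and 3, 1 and 1 had an unadjusted p under 0.05. For the interactions with testosterone (0.124% of all probes) and estradiol (0.0795%) 0 were called, with 3 at an unadjusted p under 0.05 in each. By gonad type, testosterone gave 2 calls with Sry (9.14% of all probes), Col14a1 (-0.59) and Col27a1 (0.65), and 3 without (7.06%), Col15a1 (-1.11), Col3a1 (-0.84) and Col27a1 (0.83). Col27a1 passed the detection filter only through the testosterone arrays and adds no support to these counts. Estradiol gave 0 with Sry (1.78%), with 2 at an unadjusted p under 0.05, and 1 without (2.47%), a lower Col15a1 (-0.73). With single arrays left out, the testosterone counts ran from 1 to 3 with Sry and from 3 to 4 without, and the estradiol counts from 0 to 1 and from 0 to 2. The testosterone count with Sry moved without XXSry B replicate 1, XXSry T replicate 2 or XY-Sry T replicate 2.

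The 12 genes tested in both tissues and called for a hormone in at least 1 of them are set side by side without a test, since the tissues were normalised separately. Col3a1 was lower with testosterone in liver (-0.58) and not called in fat (0.38), and was higher with estradiol in fat (0.72) and not called in liver (-0.07). Col14a1 was lower with testosterone in both, by -0.45 in liver and -0.95 in fat. Col27a1 was higher with testosterone in liver (0.74) and with estradiol in fat (0.71), and was not called for estradiol in liver (0.02) or testosterone in fat (-0.07). Col4a1 was higher with estradiol in liver (0.42) and was not called in fat (-0.11). Col4a2 was also higher with estradiol in liver (0.48) and not called in fat (-0.08).

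Col5a1 was lower with testosterone in liver (-0.33) and higher with estradiol in fat (0.60), and was not called for estradiol in liver (0.04) or testosterone in fat (0.35). Col15a1 was lower with testosterone in liver (-0.84) and was not called for either hormone in fat (-0.49 with testosterone, -0.30 with estradiol). Col6a1 was lower with testosterone in liver on the brighter of its 2 tested probes (-0.32) and was not called for either hormone in fat (0.11 and 0.30). Col16a1 and Col18a1 were higher with estradiol in fat (1.01 and 0.79) and were not called for it in liver (0.02 and 0.03). The collagen I chains Col1a1 and Col1a2, higher with estradiol in fat (0.77 and 0.80), were dim in liver and not called there (0.30 and -0.05).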

How the data were processed

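RNA of 60 liver and 55 inguinal fat samples was read on Illumina BeadChips. The tables hold, per the file headers, a mean bead signal (intensity) and a detection p-value per probe and array. The submitters' processing notes name lumi, without a role. The deposited bead standard errors (115 columns) were not used here. The scanner software and array version are not given in the sources used here. Arrays were grouped by the labels' genotype, capsule and tissue.

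Here each tissue was processed alone in limma 3.58.1 (R 4.3.3): normexp background correction from the detection p-values, an added offset of 16, quantile normalisation and log2 of the deposited intensities. The offset understates differences of dim probes. Tests covered the probes with a detection p under 0.01 on at least 5 liver or 3 fat arrays. A model with 1 mean per group was fitted over all tested probes with lmFit and eBayes, with Benjamini-Hochberg adjustment within each of 13 contrasts. Groups were weighted equally, so a contrast can differ from a difference of medians over arrays. Where a gene had several tested probes, the one with the highest mean stood for it. The number of arrays limits the precision.

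Col1a1, Col1a2, Col3a1, Col4a1, Col4a2, Col5a1, Col5a2, Col6a1, Col6a2, Col6a3, Col15a1 and Col18a1 form a core list, named where tested and above background in the main comparisons, with the values of uncalled members given in part, and with up to 3 called members per class with the largest differences and all members called for an interaction. Other called members are listed too. The members and lists were chosen with earlier results of these data known. Marker scores are mean log2 values of each list, and summed levels are log2 of the summed normalised intensities of a list's genes on the array, tested or not. The model fit was tested on simulated data. Alternatives were normalisation, background correction, offset, filter, slide, array weights, label changes, marker scores and leaving out each array. The bound for an undetected probe uses the lowest detected signal of each array.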

Additional observations from a re-analysis of the deposited data

Results flagged for a closer look

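Each tested collagen gene was examined in the 6 arms of capsule and gonad type. An array stood apart by Dixon's criterion at 95% in 17 of 156 combinations of gene and arm in fat and in 4 of 84 in liver, and about 1 combination in 20 is marked so by chance. In fat, 10 of the 17 were the same array, XY- E replicate 3, among 10 estradiol arrays without Sry. Its fibrillar values were 8.05 for Col1a2 (next array 9.71), 8.81 for Col3a1 (next 10.51) and 10.17 for Col5a1 (next 12.12). Its fibril-associated values were 5.02 for Col12a1, 5.68 for Col14a1 and 9.07 for Col16a1, and its multiplexin values 9.01 for Col15a1 and 9.72 for Col18a1. For the beaded filament chains it had 11.72 for Col6a1 and 9.01 for Col6a2.

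The other 7 in fat lay on 7 arrays. Col15a1 was low on XY-Sry E replicate 3 (11.07), Col23a1 was low on XY-Sry E replicate 1 (7.58) and Col4a5 was low on XXSry T replicate 1 (5.31). Col23a1 was high on XXSry B replicate 3 (8.41), Col4a4 on XXSry B replicate 1 (6.60), Col7a1 on XY-Sry B replicate 2 (7.94) and Col4a3 on XY- B replicate 2 (5.55). In liver, Col15a1 was high on XX T replicate 4 (6.79) and Col1a2 on XXSry B replicate 1 (6.49), and Col3a1 was low on XY-Sry B replicate 2 (4.85) and on XY- E replicate 5 (4.67), the array with testosterone-like values. The estradiol response differed between gonad types by -1.64 log2 units for the Col17a1 probe ILMN_1216228 and by 1.29 for Col23a1, each with Sry minus without Sry in limma's interaction test.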

How the results depend on the processing

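The alternatives followed 33 called collagen differences. These leave out Col27a1 with estradiol in fat and, outside the interactions, all but the brightest probe of a gene. Of the 33, all 33 remained called in the same direction with an offset of 50, 31 with no background correction and 31 with array weights. With no filter 29 remained, with slide as a block 28 and with median centring 25. Of 25 in fat, 16 remained with a fibroblast score as covariate, 11 with an epithelial score and 11 with muscle, lymph node and epithelial scores together. The epithelial and fibroblast scores alone were added after seeing the data, as was leaving out both discordant liver arrays. By gonad type the sign turned with the epithelial score for Col16a1 (0.19) and Col4a5 (0.41), and with the 3 scores for Col17a1 (0.12), Col4a5 (0.14) and Col4a6 (0.12). Calls by gonad type in fat went from 12 to 0 with either set of scores (5 and 1 at an unadjusted p under 0.05 in limma), and estradiol calls in fat from 16 to 10 with the epithelial score, 10 with the 3 scores and 8 with the fibroblast score. Calls for the interaction of estradiol and gonad type in fat went from 2 to 4 with no background correction, 5 with array weights, 4 with the fibroblast score, and 1 with the epithelial or the 3 scores. Testosterone calls in fat went from 3 to 1 with median centring and 5 with the 3 scores, sex chromosome calls in fat from 0 to 5 with array weights, and estradiol calls in liver from 2 to 1 with median centring or slide as a block. Leaving out 1 array at a time gave 13 to 17 estradiol, 11 to 13 gonad, 2 to 5 testosterone and 1 to 3 estradiol interaction calls in fat, and 5 to 7 testosterone and 2 to 3 estradiol calls in liver. Median centring moved the share of higher calls among all probes by gonad type in fat from 35.8% to 23.4%. The cause of these changes was not tested. No paired analysis was possible because the labels give no replicate numbers, but arrays could be matched by slide, as in the slide block and the within-slide differences. Dim probes such as Col5a2, Col4a6 and Col9a2 in fat and Col1a1 in liver lie near background on most arrays, where a difference is understated.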
